A study of Rattus norvegicus with 8 samples.

Results

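The microRNAs described here are 7 mature products of the rat miR-126, miR-143 and miR-145 genes, which are known as miRNAs of the blood vessel wall. They were taken by name from the probe annotation of the arrays, with every probe and both arms of each hairpin kept. They had 13 of the 1806 probes and made up 7 of the 758 miRNAs on the array. The samples were synovial tissue, the lining of the joint, from left knees of Sprague-Dawley rats, hybridised to 8 Cy3 arrays. In 4 samples the anterior cruciate ligament had been cut through an opening of the joint (ACLT, used to bring on osteoarthritis), and 4 samples were sham controls, with the ligament exposed the same way and left whole. Both groups thus had a joint opening, and the tissue was taken from the side away from the incision. The sources disagree on when, with 2 weeks in the protocol, 14 days in the title and 7 days in the design text, and they give no age. They do not say that each replicate was a separate animal. The p-values thus compare differences with the spread between these samples and may not carry over to animals.

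miR-126 lies in an intron of Egfl7, a gene of endothelial cells, and is the best known endothelial miRNA. Its 3p arm represses inhibitors of signalling by vascular endothelial growth factor. miR-143 and miR-145 are made from a shared primary transcript in smooth muscle cells and pericytes, where they are known to favour the contractile state. A hairpin yields a 5p and a 3p arm, and usually one of them is loaded into the silencing complex and kept, while the other is degraded. A miRNA finds its targets mainly through its seed, bases 2 to 8 counted from the 5′ end.

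All 7 names matched a mature sequence in the RefSeq miRNA table of rat build GRCr8. The sequences are shown because the arms and the opposite-strand product differ in which of them gave a signal. Each runs 5′ to 3′, with the seed in capitals.
rno-miR-126a-3p: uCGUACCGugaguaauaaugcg
rno-miR-126a-5p: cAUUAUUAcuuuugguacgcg
rno-miR-126b: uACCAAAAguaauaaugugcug
rno-miR-143-3p: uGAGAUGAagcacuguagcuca
rno-miR-143-5p: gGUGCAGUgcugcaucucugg
rno-miR-145-5p: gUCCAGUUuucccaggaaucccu
rno-miR-145-3p: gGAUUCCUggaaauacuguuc

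The 7 miRNAs had 7 different seeds, and 0 other mature miRNAs of the 693 in that table shared one of them. The members therefore form no seed family, and each is listed for its gene. In the same annotation rno-miR-126b comes from the strand opposite to miR-126a, and a run of 17 bases of it is the exact complement of rno-miR-126a-5p. The record that holds both arms of miR-126a carries the symbol Mir126b and the one that holds rno-miR-126b carries Mir126a, so the products are named here by their mature names. The miR-126 record lies within Egfl7. Mir143 and Mir145 are both spanned by Carmn, a long noncoding gene, with 0 other gene records between them.

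Of the 7, only the 3p arms of miR-126a and miR-143 were detected in every sample. The scanner software, Agilent Feature Extraction, called rno-miR-126a-3p and rno-miR-143-3p detected on 8 of 8 arrays. It called rno-miR-145-5p, the arm of miR-145 usually kept, detected on 4 arrays. rno-miR-126a-5p, rno-miR-126b, rno-miR-143-5p and rno-miR-145-3p were detected on 0 of 8. Of the defining endothelial and smooth muscle miRNAs, 1 each was thus present on all arrays. Signals of different probes depend on how each binds, so their heights were not set against each other.

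The arrays themselves differed in brightness. Each array was scaled by a percentile, the 75th, of the signals of 136 probes that stood well above background everywhere, and this percentile ran from 289 to 1185 intensity units. ACLT replicates 1 and 2 and sham replicate 4 were bright, at 797 or more, and the other 5 arrays were at 353 or less. Between 111 and 184 miRNAs were detected per array, 10.5% to 17.03% of spots lay well above background, and 0 were saturated. Among markers of other cells, 6 of 10 of striated muscle and 6 of 6 of leukocytes were detected on at least 1 array. For red cells this was 4 of 5, with only 4 of the markers on the array. For mesenchymal, cartilage, neural and epithelial markers it was 3 of 3, 4 of 4, 1 of 3 and 0 of 7. Over all miRNAs on the array it was 199 of 758.

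The processed signal of rno-miR-126a-3p, which the software had corrected for background, on ACLT replicates 1 to 4 came to 681, 1102, 342 and 328 intensity units. On sham replicates 1 to 4 it was 259, 440, 384 and 1372. The 3 high values were those of the 3 bright arrays, and over all arrays the signal ranged over 5.30-fold. After division by the array's 75th percentile the range was 1.62-fold. On that scale, in log2 units, the ACLT arrays were at -0.23, 0.01, -0.04 and 0.10 and the sham arrays at -0.16, 0.47, 0.12 and 0.21. Sham replicate 2 was the highest, ACLT replicate 1 and sham replicate 1 were the lowest, and the groups overlapped.

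rno-miR-126a-3p averaged -0.04 ± 0.14 in the ACLT group and 0.16 ± 0.26 in the sham group (SD, n = 4 each). The log2 difference, ACLT minus sham, was -0.20 (SE 0.14), a 1.15-fold lower mean after ACLT. Its 95% interval, -0.54 to 0.13, spans a 1.45-fold lower to a 1.10-fold higher level, and limma with Benjamini-Hochberg adjustment over all 113 tested miRNAs gave an adjusted p of 0.806. The difference was not larger than the spread between arrays. It was -0.31 without sham replicate 1 and -0.10 without sham replicate 2. In bulk tissue, fewer endothelial cells and less of the miRNA per cell cannot be told apart.

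rno-miR-143-3p followed the same bright arrays. On ACLT replicates 1 to 4 its signal came to 850, 1218, 342 and 302 intensity units, and on sham replicates 1 to 4 to 326, 514, 370 and 1618. It ranged over 5.35-fold unscaled and over 1.67-fold scaled. The scaled log2 values were 0.09, 0.15, -0.05 and -0.01 after ACLT and 0.17, 0.70, 0.07 and 0.45 after sham surgery. The ACLT arrays lay close together, sham replicates 1, 2 and 4 lay above all of them, and sham replicate 3 lay within their range.

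In the ACLT group rno-miR-143-3p averaged 0.05 ± 0.09, and in the sham group 0.35 ± 0.28 (SD, n = 4 each). The log2 difference was -0.30 (SE 0.14, 95% interval -0.64 to 0.04), a 1.23-fold lower mean after ACLT, with an unadjusted p of 0.0742 and an adjusted p of 0.645 by limma. Without sham replicate 2 it was -0.18. The interval reached from 1.56-fold lower to 1.03-fold higher, so a change of either sign within those bounds could not be told from the spread between arrays. Ordered by p, rno-miR-143-3p was at place 12 and rno-miR-126a-3p at place 25 of the 113.

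**Figure D1:**
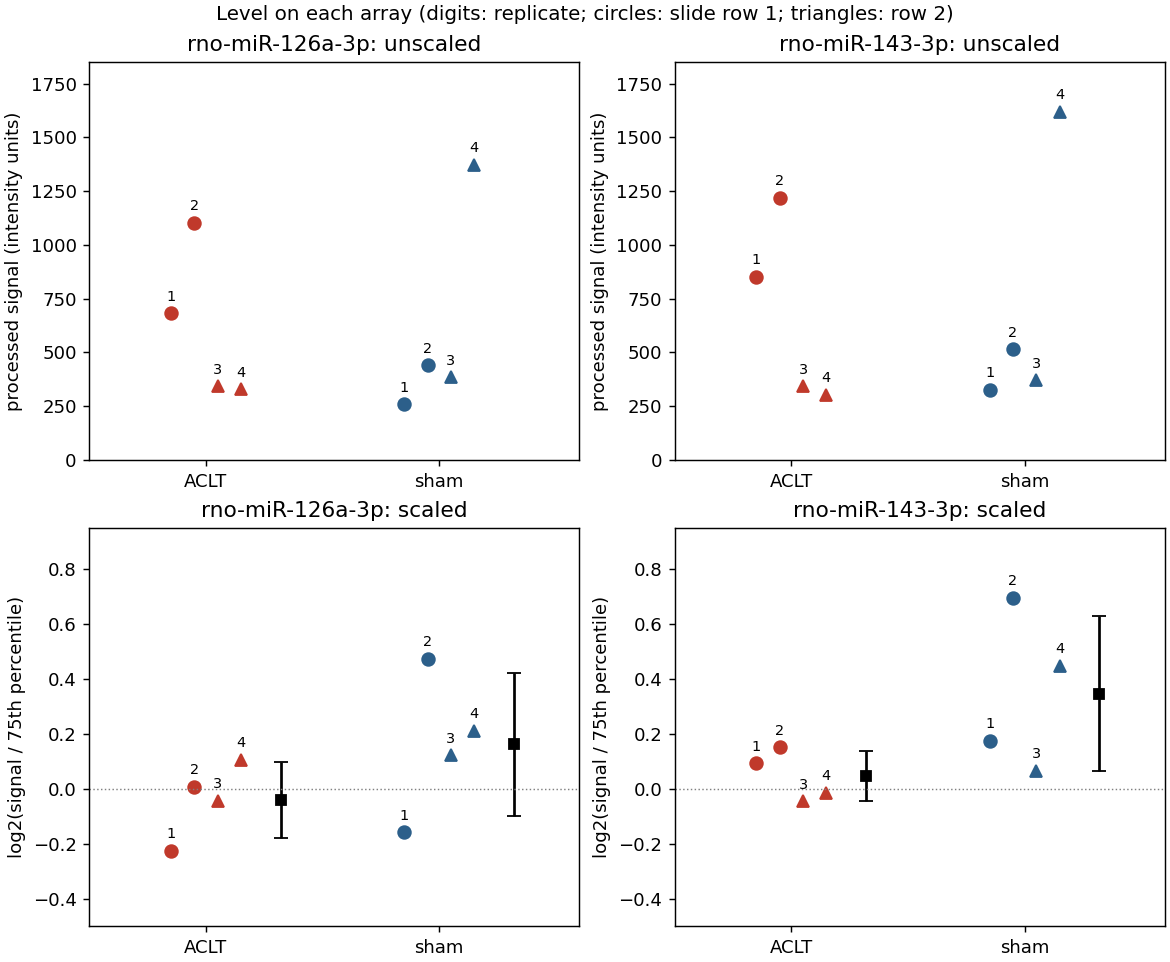
Signal of rno-miR-126a-3p (left) and rno-miR-143-3p (right) on each array, as processed signal in intensity units (top) and as log2 of the signal over the array's 75th percentile (bottom). Digits give the replicate, circles slide row 1 and triangles row 2, and black squares with bars the mean ± SD of 4 arrays. The spread of the unscaled signals, 5.30-fold and 5.35-fold, narrowed to 1.62-fold and 1.67-fold after scaling, and the groups overlapped in all panels.

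These counts were read against all miRNAs tested. At an adjusted p of 0.05 limma called 0 of 113 (0%), so neither member. Before adjustment, p was under 0.05 for 8 of 113 (7.08%), again without the members. A negative difference was found for both members and for 64.6% of all tested miRNAs. Groups that did not overlap were found for 0 of the 2 members and 0% of the 113. The 2 negative signs are thus the more frequent sign on these arrays.

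The sign itself depended on how the arrays were scaled. The differences of rno-miR-126a-3p and rno-miR-143-3p were 0.18 and 0.08 when the percentile was computed from all probes, 0.12 and 0.02 with no scaling, and 0.11 and 0.02 with the authors' value table, which is unscaled too. They were -0.40 and -0.50 with scaling to labelling spike-in probes, -0.15 and -0.38 with quantile normalization, and -0.06 and -0.16 when striated muscle probes were left out of the percentile. The positive values had SEs of 0.46 to 0.67, against 0.14 for both members as reported, so they do not establish a reversed sign. With quantile normalization the interval of rno-miR-143-3p, -0.73 to -0.03, lay below 0, but its adjusted p by limma was 0.773. These scalings also moved the median difference of all tested miRNAs, from -0.28 with the spike-in probes to 0.25 with the percentile over all probes, against -0.07 as reported.

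Relative to that median, rno-miR-126a-3p differed by -0.13 and rno-miR-143-3p by -0.23 as reported. Over the 7 scalings these values were -0.15 to -0.07 and -0.38 to -0.16. Scaling by 1 factor per array moves all miRNAs nearly alike, so these settings are not separate observations of a sign, and no test was made. Quantile normalization, which is not of that kind, gave -0.15 and -0.38.

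**Figure D2:**
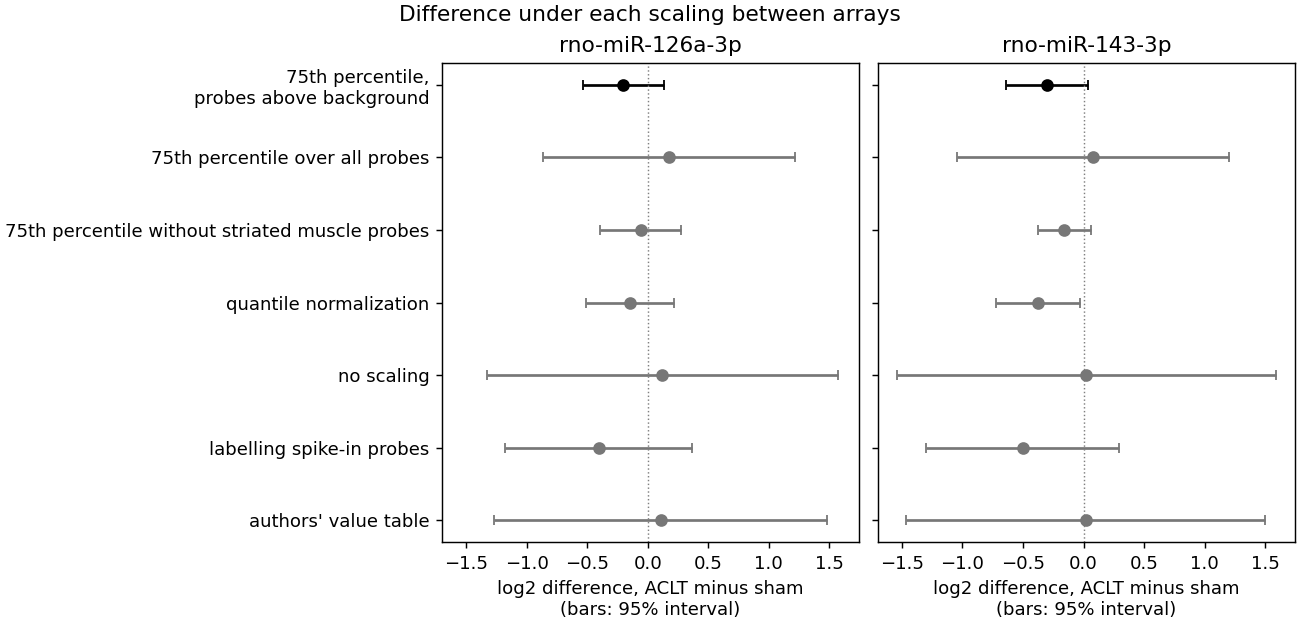
Log2 difference, ACLT minus sham, of rno-miR-126a-3p (left) and rno-miR-143-3p (right) under 7 ways of scaling the arrays, with the reported one in black and 95% intervals from limma as bars. Points lie on both sides of 0, from -0.40 to 0.18 and from -0.50 to 0.08, and every interval but that of rno-miR-143-3p with quantile normalization includes 0.

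A ratio within an array is the same under any scaling by 1 factor per array, so rno-miR-143-3p was also followed against rno-miR-126a-3p. Which cells of this bulk tissue gave either signal was not tested. The log2 signal of rno-miR-143-3p minus that of rno-miR-126a-3p on ACLT replicates 1 to 4 came to 0.32, 0.14, -0.00 and -0.12, and on sham replicates 1 to 4 to 0.33, 0.22, -0.06 and 0.24. Its height depends on the probes, and only its change between arrays was read. It averaged 0.09 ± 0.19 in the ACLT and 0.18 ± 0.17 in the sham group (SD, n = 4 each), a difference of -0.10. An exact two-sided permutation test over 70 arrangements gave p = 0.457 (adjusted p = 0.457, 1 comparison), the smallest possible p being 0.0286. The difference was not larger than the spread between arrays. Quantile normalization, which does not use 1 factor per array, gave -0.23 (exact permutation p = 0.286).

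The ratio was also read by the place of the array on its slide. All arrays were on 1 slide, whose row 1 carried replicates 1 and 2 of each group and whose row 2 carried the rest. The ratio was 0.14 to 0.33 in row 1 and -0.12 to 0.24 in row 2, and the rows overlapped; no test of the rows was made. Between the groups it differed by -0.05 within row 1 and by -0.15 within row 2. Leaving out sham replicate 3 made it -0.18, and leaving out ACLT replicate 4 made it -0.03. By itself rno-miR-126a-3p differed by -0.27 within row 1 and by -0.14 within row 2, and rno-miR-143-3p by -0.31 and -0.29.

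The separate probes of a miRNA gave differences of the same sign. The dimmer probe of rno-miR-126a-3p differed by -0.27 against -0.20 for the brighter, and the dimmer probe of rno-miR-143-3p by -0.34 against -0.30. By limma the dimmer probe of rno-miR-143-3p had an unadjusted p of 0.0337 and an adjusted p of 0.588. The ratio between the probes was also read against the brightness of the array. For rno-miR-126a-3p the brighter probe was 4.32-fold to 4.73-fold over the dimmer on the 3 bright arrays and 3.39-fold to 3.78-fold on the other 5. For rno-miR-143-3p the ratio was 4.854-fold to 5.004-fold on the bright arrays and 4.15-fold to 4.850-fold on the others. The bright arrays thus lay clearly above the others only for rno-miR-126a-3p. The margin of rno-miR-143-3p, 4.854 on ACLT replicate 1 against 4.850 on sham replicate 1, the dimmest array, was too small to read. The part of array brightness in the differences between groups was not tested.

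**Figure D3:**
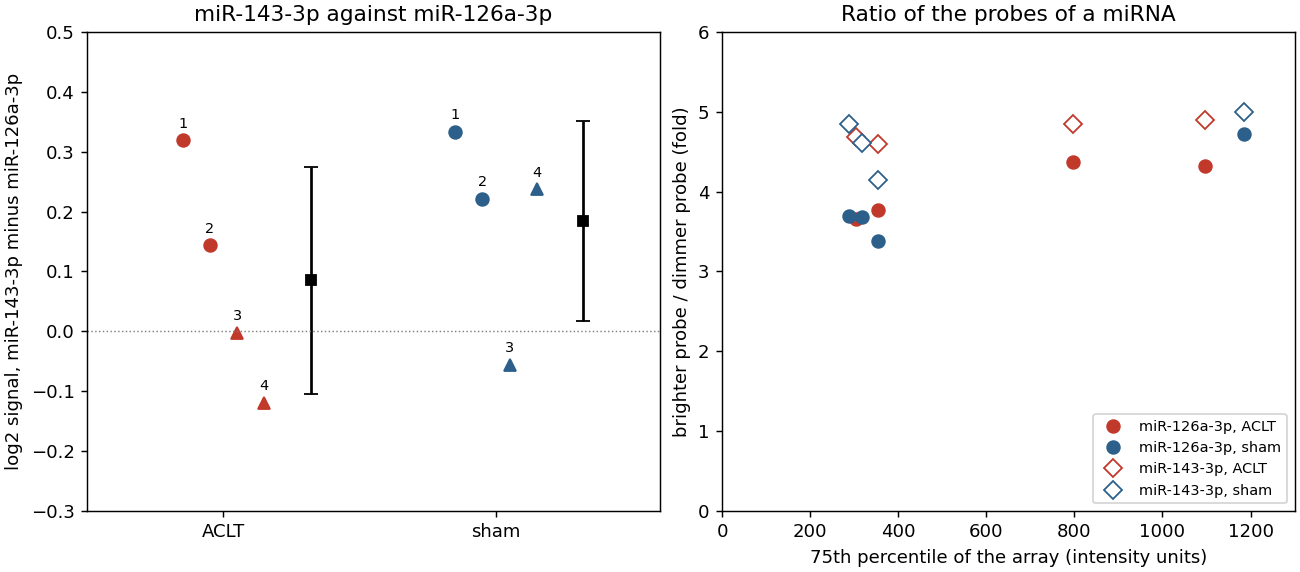
Left, log2 signal of rno-miR-143-3p minus that of rno-miR-126a-3p on each array (digits: replicate, circles: slide row 1, triangles: row 2, squares with bars: mean ± SD of 4 arrays). Right, the brighter probe over the dimmer probe of each miRNA (fold) against the array's 75th percentile (intensity units). The groups overlap on the left, and on the right the 3 arrays at 797 or more hold the highest ratios of rno-miR-126a-3p, 4.32 to 4.73.

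rno-miR-145-5p stayed near background although its gene neighbours Mir143. On ACLT replicates 1 to 4 its brighter probe gave 8.13, 11.8, 5.96 and 5.77 intensity units, and on sham replicates 1 to 4 it gave 7.07, 11.9, 15.7 and 12.2. The miRNA was called detected on ACLT replicate 2 and on sham replicates 2, 3 and 4. The groups overlapped. The probe was well above background on 0 of 8 arrays, and at most it reached 0.916 of the lowest signal well above background on the same array. Those lowest signals were 13.1 to 17.3, and the negative controls averaged 3.33 to 4.98. No fold was computed, and no limma test was made.

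The arms rno-miR-126a-5p, rno-miR-143-5p and rno-miR-145-3p and the opposite-strand product gave signals near the level of the negative controls or below 0. Over the 8 arrays the 16 spots of rno-miR-126a-5p averaged 2.94 to 6.60 intensity units, although its 3p partner was detected on all of them. The brighter of the 2 probes averaged -2.18 to -0.57 for rno-miR-126b, 1.05 to 3.85 for rno-miR-143-5p and -1.49 to 2.48 for rno-miR-145-3p. None of these 4 was well above background in any of the arrays. For rno-miR-126a-5p the groups overlapped, the ACLT arrays lying at 4.06 to 4.46 within the sham range of 2.94 to 6.60. A lower level than the arrays can measure is not excluded by these signals.

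**Figure D4:**
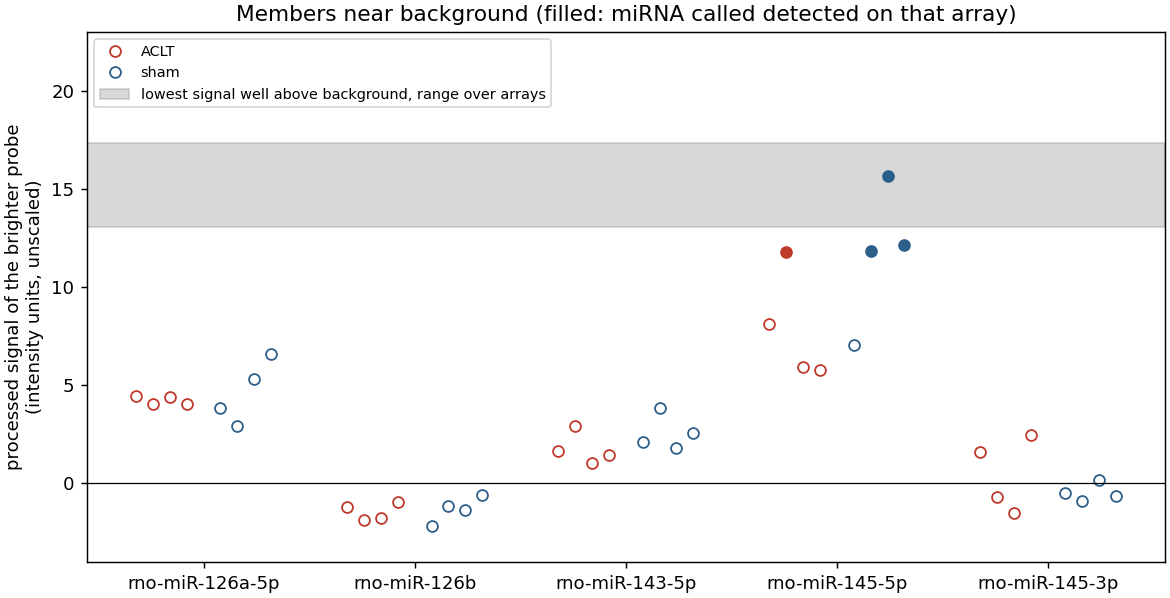
Processed signal (intensity units, unscaled) of the brighter probe of the 5 members near background, with 4 ACLT and 4 sham arrays each, filled where the miRNA was called detected. The grey band is the range over arrays of the lowest signal well above background, 13.1 to 17.3. rno-miR-145-5p on sham replicate 3, at 15.7, is the only point inside it, and it was below the lowest such signal of its own array.

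Across the 8 arrays the scaled levels of the 2 measured members were related only in part. Pearson's r was 0.74 (permutation p = 0.0387, adjusted p = 0.0945 over 7 relations) and Spearman's rho 0.43 (permutation p = 0.299, adjusted p = 0.458). Without sham replicate 2 and ACLT replicate 1, the arrays farthest from the median, r was 0.38, so the relation rests on them. It was 0.97 with the percentile over all probes and 0.40 with quantile normalization. Levels scaled by a shared factor per array are tied to each other by that factor.

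By rank, the level of rno-miR-126a-3p followed those of leukocyte and erythroid miRNAs. Against the mean log2 level of 4 tested leukocyte markers, r was 0.85 (permutation p = 0.00918, adjusted p = 0.0642) and rho 0.95 (permutation p = 0.00114, adjusted p = 0.00799), and r was 0.79 without ACLT replicate 1 and sham replicate 2. With quantile normalization r was 0.46 and rho 0.25, while rho was 0.79 to 0.95 under the other scalings tried. All 4 tested leukocyte markers had a negative log2 difference between ACLT and sham (median -0.18), 1 with an unadjusted p under 0.05 by limma and 0 after adjustment. Of all 113 tested miRNAs 64.6% were negative, and 7.08% had an unadjusted p under 0.05 by limma. The summed scaled level of the 6 leukocyte markers was 0.444 to 0.572 after ACLT and 0.481 to 0.601 after sham surgery. Against 3 tested erythroid markers r was 0.72 (permutation p = 0.0405, adjusted p = 0.0945) and rho 0.83 (permutation p = 0.0154, adjusted p = 0.0359). These means hold floor values, the lowest level used. Of the erythroid markers 1 was at the floor on 4 arrays, and of the leukocyte markers 1 was there on 1 array. Without sham replicates 1 and 3 r was 0.84, and it was 0.81 to 0.85 under the 4 other scalings tried. Of the 3 erythroid markers 2 had a negative difference between ACLT and sham (median -0.53), beside 64.6% of all tested miRNAs, and 0 of them passed the limma test. The summed erythroid level was 0.525 to 0.959 after ACLT and 0.494 to 1.49 after sham surgery, with miR-486-5p on no array under that name. Whether blood in the tissue had a part in the level of rno-miR-126a-3p was not tested.

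By rank, rno-miR-143-3p was lower on arrays with more striated muscle miRNA. For the mean of 4 tested striated muscle markers rho was -0.83 (permutation p = 0.0154, adjusted p = 0.0359) and r was -0.49 (permutation p = 0.221, adjusted p = 0.310), or -0.90 without ACLT replicates 2 and 4. Most of these markers were at the floor on 1 array. When the muscle probes were left out of the percentile rho was -0.19, and with the percentile over all probes it was -0.24. It was -0.76 with spike-in scaling and -0.80 with quantile normalization. All 4 markers had a positive difference between ACLT and sham (median 0.47), 0 of them past the limma test. Of all 113 tested miRNAs 38 were positive, and the difference of rno-miR-143-3p was negative. The summed level of the 10 markers was 0.129 to 16.4 after ACLT and 1.49 to 6.35 after sham surgery, with miR-208a-3p, miR-208b-3p, miR-1-5p and miR-206-5p detected on no array. Whether muscle in the tissue had a part in the difference of rno-miR-143-3p was not tested. The other 3 relations, of rno-miR-126a-3p with muscle and of rno-miR-143-3p with the blood markers, had adjusted permutation p-values of 0.288 to 0.683 for r. Each slide row held 4 arrays, too few for a correlation of its own, and no pooled correlation with brightness was computed because the arrays fell into a bright and a dim cluster.

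By Pearson's r over the 8 arrays, the miRNAs most like rno-miR-126a-3p among 77 above the floor on every array were rno-miR-20a-5p (r 0.85), rno-miR-25-3p (r 0.83) and rno-miR-10a-5p (r 0.81). Those most like rno-miR-143-3p were rno-miR-497-5p (r 0.85), rno-miR-106b-5p (r 0.84) and rno-miR-195-5p (r 0.84). These values describe arrays that share a scaling factor. With no scaling the 6 values were 0.99 and with quantile normalization they were 0.22 to 0.84, the lowest being that of rno-miR-20a-5p. The log2 differences of these 6 miRNAs between ACLT and sham were -0.35 to -0.11, none passing the limma test. The 6 were picked on the same arrays for likeness to members with negative differences, so their sign is no separate observation. Of all tested miRNAs 64.6% were negative.

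Other miRNAs known from vessels were read from 2 lists. Of 23 endothelial and angiogenic miRNAs 13 were tested. Their log2 differences were positive for 7 and negative for 6, with a median of 0.0023 against -0.07 for all 113. Among all 113 tested, 38 were positive and 73 negative. The tested miR-23, miR-27 and miR-24 members of the list were all positive, and miRNAs of shared clusters are not separate observations. The 3 brightest were rno-miR-23a-3p, rno-miR-23b-3p and rno-miR-27a-3p, of clusters that act on endothelial sprouting. Their differences were 0.06 (SE 0.08), 0.09 (SE 0.14) and 0.12 (SE 0.09). The lowest difference of the list, -0.35, was that of rno-miR-10a-5p, and rno-miR-126a-3p was among the 6 negative ones.

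Of 17 smooth muscle and pericyte miRNAs 16 were on the array and 9 were tested. Of the 9, 5 had a positive and 4 a negative difference (median 0.04), beside 38 and 73 of all 113. The 3 brightest were rno-miR-21-5p, which is induced in injured vessels and in fibrosis, rno-miR-26a-5p, known to act on smooth muscle differentiation, and rno-miR-24-3p. rno-miR-21-5p was at 2.08, 2.38, 1.79 and 1.29 after ACLT and at 1.51, 1.02, 0.60 and 1.72 after sham surgery, in scaled log2 units, and the groups overlapped. Its difference was 0.67 (SE 0.32, adjusted p = 0.645 by limma). rno-miR-26a-5p differed by -0.18 (SE 0.24) and rno-miR-24-3p, which is in both lists, by 0.09 (SE 0.12). The lowest difference of this list, -0.30, was that of rno-miR-143-3p. Both medians moved with the alternatives, from -0.20 to 0.38 for the endothelial and from -0.17 to 0.41 for the smooth muscle list. Limma called 0 members of either list at an adjusted p of 0.05, and p before adjustment was under 0.05 for 0 of them.

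**Figure D5:**
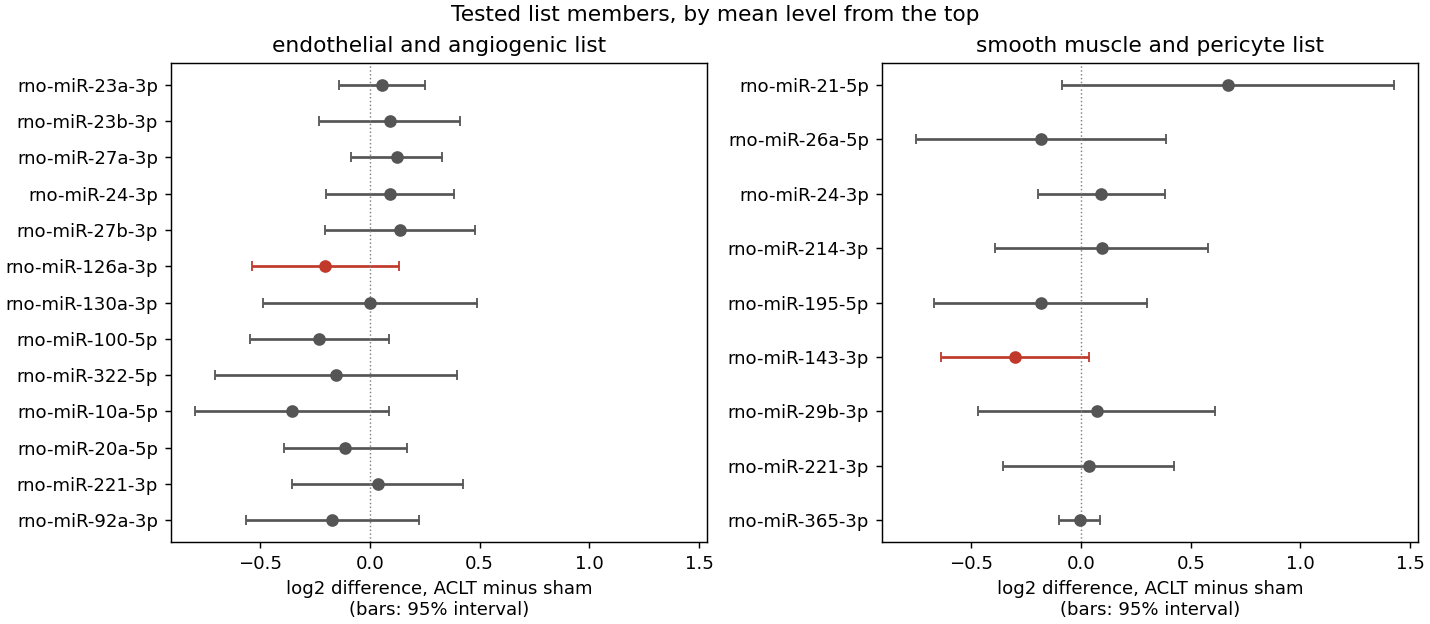
Log2 difference, ACLT minus sham, with 95% intervals from limma, of the 13 tested endothelial and angiogenic (left) and the 9 tested smooth muscle and pericyte miRNAs (right), ordered by mean level from the top. rno-miR-126a-3p (-0.20) and rno-miR-143-3p (-0.30) are in red, and every interval includes 0.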

How the data were processed

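Per the file headers, the authors used Agilent Feature Extraction (version 10.7.3.1) on array design 070154 with grid build rn4 and protocol miRNA_107_Sep09. The deposited processed signals are an intensity in linear units, background-subtracted and not scaled between arrays. The authors' value table equals that software's summary per miRNA (largest difference 0). Per the labels' protocols, 50 ng of total RNA was labelled as cRNA with a Low Input Quick Amp kit, a kit made for messenger RNA; whether it was used here is not settled.

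Control and outlier spots (9.01% to 11.1% per array) were left out and spots averaged per probe. A probe was well above background where at least 0.5 of its spots were. Signals were divided by the array's percentile (75th, over the 136 probes well above background on every array) and floored at 0.0449, and log2 was taken (floor -4.48). The brightest probe over all arrays stood for a miRNA. The 113 tested miRNAs were detected throughout at least 1 group. The groups were compared with limma 3.58.1 (R 4.3.3) on 8 arrays with no covariate and Benjamini-Hochberg adjustment at 0.05. Intervals are at 95%. Relations and ratios used exact permutation tests, two-sided. The number of arrays limits precision. The limma step was tested on simulated log2 levels and the permutation test of group differences on made-up values. Scaling, flooring and the choice of probe were not simulated. Named are the 7 members, the 3 miRNAs most like each measured member and the 3 brightest tested of each vascular list. rno-miR-10a-5p is also named for the lowest difference of its list. Members and lists were chosen with earlier results of these data known. Sequences are from RefSeq, read from tables of build GRCr8; no coordinates are given because the builds differ. Alternatives were other scalings, background correction, probe summaries, floors, filters, variance models, slide row, replicate number and leaving out arrays. The ratio of probes by brightness, the relations under other scalings and the ratio of both miRNAs with quantile normalization and normexp were added after seeing the data.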

Additional observations from a re-analysis of the deposited data

Results flagged for a closer look

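Within 38 group values of 4 arrays each, covering the members and the named miRNAs, 1 had an array far from the other 3, where chance gives 1.9. It was rno-miR-23b-3p on sham replicate 3, at a scaled log2 level of 0.78 where sham replicates 1, 2 and 4 lay between 1.17 and 1.24, a gap that took up 0.855 of the group's range. No value of rno-miR-126a-3p, rno-miR-143-3p or their ratio had such an array.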

How the results depend on the processing

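The log2 differences of rno-miR-126a-3p and rno-miR-143-3p kept their negative sign under 26 of 29 alternatives each, ranging from -0.40 to 0.18 and from -0.50 to 0.08. Other floors, filters and variance models and a block for slide row or replicate cannot move these differences, so they do not bear on the sign. The sign turned when all probes entered the 75th percentile (0.18 and 0.077), with no scaling (0.12 and 0.023) and with the authors' value table (0.11 and 0.017). The SEs of these values were 0.46 to 0.67, and the cause was not tested. Leaving out 1 array gave -0.31 to -0.10 and -0.39 to -0.18. The difference in the ratio of the 2 miRNAs kept its sign under all 19 of its alternatives, from -0.23 with quantile normalization, added after seeing the data, to -0.03. Floors and blocks could not move this value either. The software's summary per miRNA and the authors' value table gave the same -0.09, as they differ by 1 factor per array. Settings by row or without 1 array reuse the same arrays, so the 19 are not separate observations. Leaving out 1 array gave -0.18 to -0.03. Neither member passed under any of these, the smallest adjusted p by limma being 0.389. Before adjustment the smallest limma p of rno-miR-126a-3p was 0.0395, without sham replicate 1. That of rno-miR-143-3p was 0.0251, without sham replicate 3. Limma called 0 miRNAs under 27 of 28 alternatives and 8 within slide row 1 alone, neither member among them, where each group had 2 arrays. The endothelial and smooth muscle list medians were 0.38 and 0.41 with the percentile over all probes, 0.33 and 0.36 with no scaling and 0.31 and 0.40 with the authors' value table. They were negative with spike-in scaling (-0.20 and -0.17) and normexp background (-0.15 for both). Both groups use replicate numbers 1 to 4, which the sources tie to nothing shared, and the deviations of same-numbered arrays correlated at -0.19, 0.59, 0.80 and -0.41. With a replicate block, which by design leaves the differences at -0.20 and -0.30, the adjusted p was 0.704 by limma for both. With that block 0 miRNAs were called and the exact permutation p of the ratio was 0.375. Signal over background limits what can be said of the 5 members near background, and 4 arrays per group limit the rest.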
